A study of Mus musculus with 2 samples.

Results

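T cell receptor variable segments are the gene pieces, Trav for the alpha chain and Trbv for the beta chain, that supply most of the antigen-facing part of each receptor. They were taken as all Trav and Trbv rows of the matrices with at least 20 unique molecular identifiers (UMIs, 1 per captured transcript) summed over both libraries, which gave 79 members of 163 listed segments among 32285 genes. The members were 58 of 128 Trav and 21 of 35 Trbv segments. The cells were regulatory T cells (Tregs, CD4 T cells that restrain immune responses under the transcription factor Foxp3) from mouse spleen, 1 library for each of 2 groups and 2 pooled spleens per library. The CD25WT mice carried the alleles CD25WT/WT, tdTomato+/+ and Foxp3eGFPCretERT2+/+. The CD25KO mice carried CD25FL/FL with the same tdTomato and Foxp3 alleles, so that Cre, made where Foxp3 is expressed and switched on by tamoxifen, recombines floxed CD25, which is the high-affinity subunit of the receptor for interleukin-2. Both groups received tamoxifen at 2 mg/kg by intraperitoneal injection for 5 days, and spleens were taken after a further 10 days. Live cells positive for CD4 were sorted on their GFP and tdTomato signals. The CD25KO sort alone was also gated on low CD25, so that gate and genotype cannot be told apart. Age, sex, strain background and the extent of the deletion were not given in the sources used here. With 1 library per group there was no replicate, no difference was tested, and every 95% interval covers counting error only.

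Each T cell precursor joins 1 variable segment to a joining segment (with a diversity segment between them in the beta chain), and the joined exon is spliced to a constant gene, Trac for alpha and Trbc1 or Trbc2 for beta. A clone therefore carries its segments as a lasting label, and mature T cells no longer change them. The mouse alpha locus holds families of segments that were copied along the chromosome, and the copies are marked d or n in their names. In the receptor mRNA the variable exon lies toward the 5′ end, while the libraries read tags near the 3′ end, so a segment is seen when a tag happens to start far upstream or the cDNA was primed inside the transcript. A cell without a segment UMI is therefore not a cell without that segment, and no CDR3 sequence, the junction that would identify a clone, can be read from the counts.

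Segments differed in how much sequence they share with other segments. The 3 Trav16 copies are shown because they held 14.9% of CD25WT and 18.7% of CD25KO Trav UMIs and went in different directions between the libraries. The last 250 bases of each are given 5′ to 3′ from the GENCODE M21 transcripts (mm10, plus strand), with the 5 positions at which the copies differ in capitals. The Trav16 stretch is chr14:53743456-53743705, the Trav16n stretch chr14:53351372-53351621 and the Trav16d-dv11 stretch chr14:53047572-53047821, all within the variable exon.
Trav16: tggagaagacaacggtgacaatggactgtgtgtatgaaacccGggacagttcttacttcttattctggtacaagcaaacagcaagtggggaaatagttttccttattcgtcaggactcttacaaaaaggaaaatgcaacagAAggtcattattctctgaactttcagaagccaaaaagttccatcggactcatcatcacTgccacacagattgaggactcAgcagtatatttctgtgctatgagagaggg
Trav16n: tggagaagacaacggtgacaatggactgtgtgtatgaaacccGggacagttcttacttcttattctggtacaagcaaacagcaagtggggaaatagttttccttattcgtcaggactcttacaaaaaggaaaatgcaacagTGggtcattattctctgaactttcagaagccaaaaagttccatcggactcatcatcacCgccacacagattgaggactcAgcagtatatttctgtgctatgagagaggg
Trav16d-dv11: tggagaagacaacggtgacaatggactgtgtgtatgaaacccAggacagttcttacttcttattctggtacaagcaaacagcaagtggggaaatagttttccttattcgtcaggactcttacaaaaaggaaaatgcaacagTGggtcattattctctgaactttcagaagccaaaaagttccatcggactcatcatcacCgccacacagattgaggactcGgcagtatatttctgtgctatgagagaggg

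Counting positions from 1 at the 5′ end of these stretches, Trav16n differs from Trav16 by A142T, A143G and T200C, and Trav16d-dv11 carries those 3 changes and also G43A and A221G. Within these stretches, a tag that covers none of these positions reads the same in all 3 copies. Bases upstream of the stretches were not compared position by position. Trav10 (chr14:53506037-53506286) and its n copy Trav10n (chr14:53122361-53122610), which also went in opposite directions, differ at 3 positions of their last 250 bases, T57C, T158C and G165A from Trav10 to Trav10n.
Trav10: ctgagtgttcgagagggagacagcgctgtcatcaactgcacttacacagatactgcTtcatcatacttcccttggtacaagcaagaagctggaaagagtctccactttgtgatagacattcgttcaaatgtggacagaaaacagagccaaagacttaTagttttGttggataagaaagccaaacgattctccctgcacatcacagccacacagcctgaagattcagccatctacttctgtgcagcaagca
Trav10n: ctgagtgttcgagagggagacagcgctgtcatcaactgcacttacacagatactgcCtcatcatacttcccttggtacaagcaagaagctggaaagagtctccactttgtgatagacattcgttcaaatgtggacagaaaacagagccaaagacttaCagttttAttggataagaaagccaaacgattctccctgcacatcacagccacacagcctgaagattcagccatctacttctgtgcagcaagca

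The segment ends were compared at the codon for the conserved cysteine that opens the junction. The letters TGTGC (cysteine and the start of the next codon), searched on the sense strand of the last 40 bases, were found in 65 of the 79 members (82.3%) and in 4.16% of 141496 other GENCODE transcripts. They were not particular to the members, since 72.6% of the 84 segments left out carried them as well. The reverse complement GCACA was in none of the members and in 3.40% of the others. The last 60 bases are given for the most used beta segment (Trbv2), the beta segments that were higher (Trbv12-2) and lower (Trbv1) in CD25KO, and 2 members that the annotation lists as pseudogenes (Trav22, Trbv24), with TGTGC in capitals where present. The stretches are chr6:41047936-41047995, chr6:41119305-41119364, chr6:40891826-40891885, chr14:53927536-53927595 and chr6:41218498-41218557, in that order.
Trbv2: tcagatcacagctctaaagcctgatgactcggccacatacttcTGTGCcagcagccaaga
Trbv12-2: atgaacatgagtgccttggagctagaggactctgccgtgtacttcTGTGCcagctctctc
Trbv1: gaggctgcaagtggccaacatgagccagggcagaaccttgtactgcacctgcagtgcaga
Trav22: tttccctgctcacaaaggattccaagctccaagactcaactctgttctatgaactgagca
Trbv24: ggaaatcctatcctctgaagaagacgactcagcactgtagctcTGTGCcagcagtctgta

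Every 60-base stretch of all 35 Trbv segments was found in no other segment. Among the 128 Trav segments, 39 had no 60-base stretch of their own, and these held 9 UMIs in all, with no member among them. A further 16 had fewer than 25% of their stretches to themselves and gave 4 members, whereas 47 of 62 segments with 25% or more, and 7 of 11 with all of them, were members. Trav6d-7 and Trav6n-7 are such a pair, with 0 UMIs each and no stretch of their own. A Trav share is thus a share of the UMIs that were assigned to Trav segments, and the part of shared sequence in the low counts was not tested. The annotation lists 33 of the 163 segments as pseudogenes, and of these only Trav22 and Trbv24 reached 20 UMIs. Just inside the minimum lay Trav13n-3, Trav7n-4 and Trav6d-5 with 21 UMIs each, and just outside it Trav15-1-dv6-1, Trav6-3 and Trav8-2 with 16 each. The 70 Trav segments left out held 151 UMIs and 47 of them had none, and the 14 Trbv segments left out held 29 UMIs and 9 had none.

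**Figure D1:**
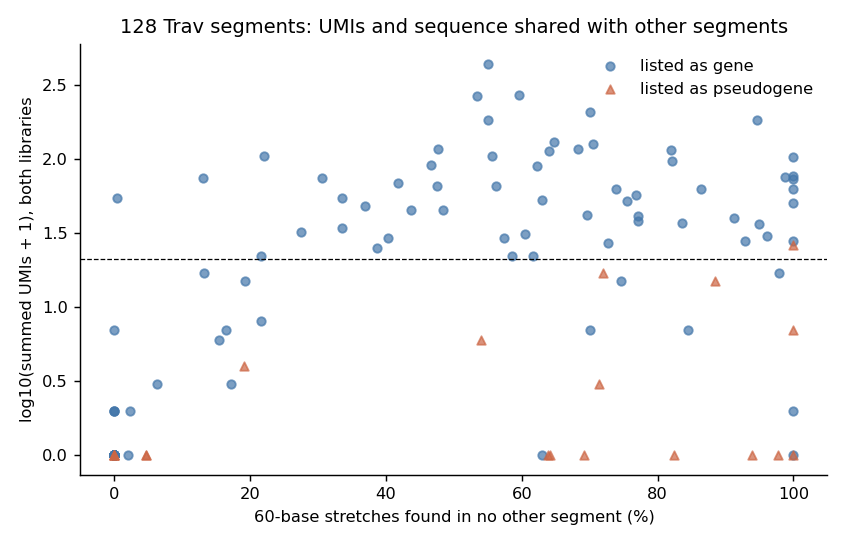
Each point is 1 of the 128 Trav segments, with the percent of its 60-base stretches found in no other segment on the x axis and log10(summed UMIs + 1) over both libraries on the y axis; the dashed line is the 20-UMI minimum. The 39 segments at 0% lie at or near 0 UMIs, and most points above the line have 25% or more.

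After cells with fewer than 500 detected genes, more than 10% mitochondrial UMIs or a UMI of the B cell gene Cd79a were left out, 6051 CD25WT and 6902 CD25KO cells remained. The median depth was 5229 and 4148.5 UMIs per cell, and 26 barcodes occurred in both libraries. Il2ra itself, which encodes CD25, had 4377 UMIs in CD25WT and 1148 in CD25KO (124.8 and 32.4 CPM, that is, UMIs scaled so that both libraries have one total). The T cell genes Cd3d, Cd3g and Trbc2 were detected in 96.1% to 98.2% of cells of either library. Foxp3 stood at 34.2 and 21.7 CPM, with a UMI in 15.9% and 9.98% of cells. Of other cell types, Cd8a had 47 and 36 UMIs, while Cd8b1 was found in 5.27% and 5.24% of cells. Among natural killer and innate-like markers, Ncr1 had 3 and 1 UMIs, Zbtb16 4 and 4, Klre1 1 and 8 and Klrb1c 10 and 90. The haemoglobin gene Hbb-bs stood at 2169 and 1240 CPM. Of barcodes with 3 or more B cell markers and no CD3 UMI, 0 of 17 and 0 of 19 carried a segment UMI, at median depths of 4442 and 3930 UMIs, and a count of 0 allows a share of up to 17.6% and 15.8% (3 counts of the total). Of the barcodes with 3 or more B cell markers and a CD3 UMI, 7 in each library with median depths of 8357 and 6972 UMIs, 1 in CD25WT carried a Trbv UMI and 3 in CD25KO carried Trav UMIs, 5 in all.

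Segments were captured in about the same share of cells in the 2 libraries. A Trav UMI was found in 21.5% of CD25WT cells (95% Clopper-Pearson interval 20.5 to 22.6) and 19.7% of CD25KO cells (18.8 to 20.7). A Trbv UMI was found in 22.3% (21.3 to 23.4) and 21.7% (20.7 to 22.7), and a segment of either chain in 38.7% and 36.5%. With each cell thinned to 2000 UMIs, which left out 88 and 372 shallower cells, the shares were 10.5% and 10.3% for Trav and 10.2% and 10.5% for Trbv. The Trav shares were thus closer at equal depth than in the full libraries.

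In summed UMIs, Trav segments held 2329 in CD25WT and 2292 in CD25KO (66.4 and 64.6 CPM, log2 ratio -0.04, exact Poisson interval -0.12 to 0.05). Trbv segments held 1742 and 1906 (49.6 and 53.7 CPM, log2 ratio 0.11, 0.02 to 0.21). The median log2 ratio over the 13231 genes with 20 or more UMIs was 0.23, so both chains lay below the median gene. The Trbv ratio changed sign with other scalings, to -0.11 with TMM factors and -0.08 when ribosomal protein and mitochondrial genes were taken out of the total.

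The constant genes, which sit at the 3′ end of the same transcripts, did not move with the alpha segments. Trac went from 675 CPM in CD25WT to 862 CPM in CD25KO (log2 ratio 0.35, 0.33 to 0.38). Trbc1 had a log2 ratio of 0.29 and Trbc2 of 0.17. Per 100 Trac UMIs there were 9.83 Trav UMIs in CD25WT and 7.49 in CD25KO, and per 100 Trbc UMIs 1.65 and 1.55 Trbv UMIs. Trav tags were thus several times more frequent per constant-gene UMI than Trbv tags in both libraries.

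Among the other receptor genes, the CD3 subunits that carry the receptor's signal had log2 ratios of 0.32 (Cd3d), 0.44 (Cd3e), 0.51 (Cd3g) and 0.07 (Cd247). Trat1, an adaptor associated with the receptor complex, went the other way at -0.56 (-0.63 to -0.48). The genes for the recombinase, Rag1 and Rag2, had no UMI in either library, which allows a share of cells with a UMI of up to 0.0496% and 0.0435%. Dntt, which adds bases at the junctions, had 17 and 2 UMIs, and Ptcra, the pre-T alpha chain of precursors, 17 and 48. Constant genes of the other T cell lineage were lower in CD25KO, with 182 and 87 UMIs of Trdc, 64 and 14 of Tcrg-C1, 33 and 18 of Tcrg-C2 and 75 and 27 of Tcrg-C4. Joining segments were almost unseen, with 30 UMIs over 60 Traj genes in each library, 4 and 2 over 14 Trbj genes, and none over 2 Trbd genes.

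Use of beta segments was uneven and close between the libraries. Trbv2 led with 20.7% of Trbv UMIs in CD25WT (361 UMIs in 255 cells) and 21.1% in CD25KO (402 UMIs in 272 cells). Trbv3 followed with 8.50% and 8.87%, Trbv12-2 with 6.31% and 8.92%, Trbv20 with 7.12% and 7.97%, and Trbv13-2 and Trbv19 each with 7.18% and 7.71%. Trbv16 had 5.17% and 5.09%, and Trbv1 6.20% and 4.04%. Below Trbv2, neighbours in the order of mean share had overlapping intervals within each library, except Trbv13-2 and Trbv16 in CD25KO, where the upper bound of Trbv16 (6.17%) lay under the lower bound of Trbv13-2 (6.55%). Across the 21 segments, the shares in the 2 libraries had a Pearson r of 0.98 and a Spearman rho of 0.95, given as a description of segments that share a capture bias. The effective number of segments, the inverse Simpson index that would equal 21 with equal use, was 11.5 (10.7 to 12.3) in CD25WT and 10.9 (10.2 to 11.6) in CD25KO.

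**Figure D2:**
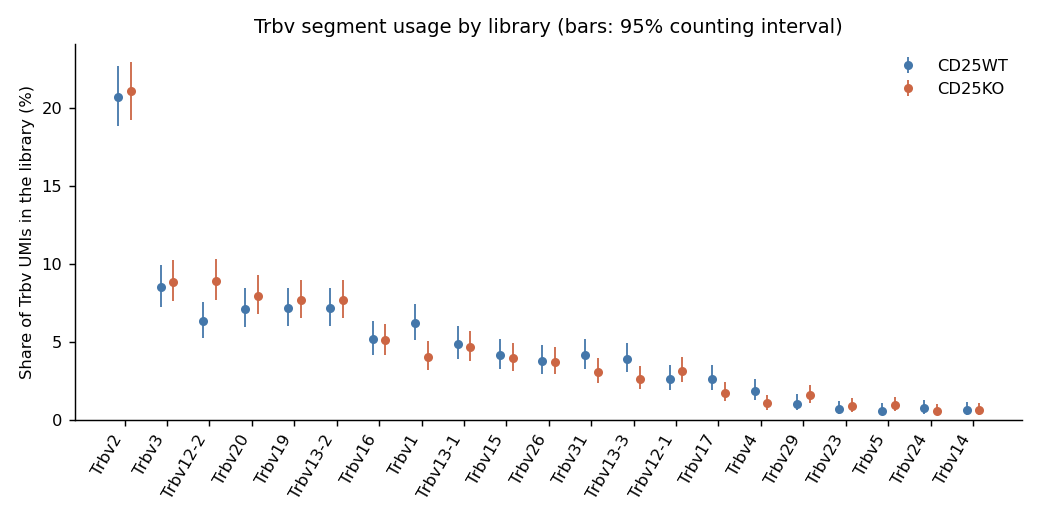
Share of Trbv UMIs in percent (y axis) for the 21 Trbv segments (x axis, ordered by mean share), with CD25WT in blue and CD25KO in orange and 95% Clopper-Pearson bars. Trbv2 stands at 20.7% and 21.1%, and the bars of most segments overlap between the libraries.

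At a difference of 1.5-fold or more in share, 2 Trbv segments were higher in CD25KO (Trbv5, Trbv29) and 3 lower (Trbv1, Trbv4, Trbv17). On the CPM scale it was 3 higher and 1 lower of 21, 19.0% in either direction. Among all genes of the same abundance (20 to 763 UMIs) 39.6% were that far apart, 31.2% higher and 8.45% lower, and among all genes with 20 or more UMIs 25.2%, 20.4% higher and 4.84% lower. Trbv1 went from 108 UMIs in 90 cells to 77 in 68 (log2 share ratio -0.62, -1.03 to -0.21), and the interval over cells also lay below 0 (-0.59, -1.05 to -0.14). Trbv12-2 went from 110 UMIs in 93 cells to 170 in 150 (0.50, 0.17 to 0.83). Trbv12-1, of the same family, stood at 46 and 60 UMIs (0.25, -0.29 to 0.80). Trbv13-3 was lower (68 and 50 UMIs, -0.57, -1.09 to -0.06, but 0.10 over UMIs in cells with 2 or more of them), as was the rarer Trbv4 (32 and 20 UMIs, -0.81, -1.61 to -0.01). The intervals of Trbv31 (-0.42), Trbv15 (-0.07) and Trbv13-1 (-0.06) included 0.

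The constant gene with more UMIs was counted in cells with each beta segment, since Trbc1 and Trbc2 are alternatives on the joined transcript. They are near-identical in their coding parts, and the handling of reads shared between them was not given in the sources used here. UMIs of both were found in 3567 of 6051 CD25WT and 4015 of 6902 CD25KO cells. The gene with more UMIs is therefore not a sure reading of the one a cell uses. More Trbc1 than Trbc2 UMIs were found in 26.3% of CD25WT cells and 26.4% of CD25KO cells with unequal counts. Among cells with a Trbv2 UMI it was 15.3% (11.1 to 20.4) and 21.0% (16.2 to 26.5), and among cells with Trbv17 4 of 36 and 4 of 29. Trbv12-1 cells stood at 34.1% and 43.4%, the latter with an interval of 29.8 to 57.7, and Trbv5 cells at 5 of 9 and 9 of 18. Of the 21 segments in each library, the intervals lay wholly below the value for all cells for Trbv2 and Trbv17 in CD25WT (3.11 to 26.1 for Trbv17). Only for Trbv12-1 in CD25KO did the interval lie wholly above it. Among cells with any Trbv UMI the values were 25.6% and 27.6%. Against these, the Trbv17 interval no longer lay wholly below, whereas those of Trbv2 and Trbv12-2 (13.5 to 26.9) in CD25KO did.

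Alpha segments were spread over more members and were less alike between the libraries. The effective number was 31.1 (28.8 to 33.3) of 58 in CD25WT and 28.6 (26.8 to 30.4) in CD25KO. Across the 58 segments, the shares had a Pearson r of 0.75 and a Spearman rho of 0.62, again as a description, with fewer UMIs per segment than for Trbv. By share of Trav UMIs, 14 segments were 1.5-fold or more higher in CD25KO and 16 lower. The UMI interval excluded 0 for 10 and 14 segments, and the interval over cells for 7 and 13. The share of all genes with such an interval was not computed. On the CPM scale 14 were higher and 18 lower of 58, or 24.1% and 31.0%, against 31.2% and 8.45% of all genes of that abundance.

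Trav16n, on the n copy of the locus, held the largest mean share, with 245 UMIs in 126 CD25WT cells (10.5%) and 192 in 112 CD25KO cells (8.38%, log2 ratio -0.33, -0.59 to -0.07). Over cells its interval included 0 (-0.36, -0.72 to 0.004). Trav16, its copy at the 3′ end of the locus shown above, had 75 UMIs in 54 cells (3.22%) and 194 in 99 cells (8.46%, 1.39, 1.02 to 1.77). Over cells the Trav16 ratio was 0.68 (0.21 to 1.16), since a Trav16 cell held more UMIs in CD25KO. Trav16d-dv11 had 26 and 42 UMIs (0.71, 0.01 to 1.42), and over cells its interval included 0 (0.40, -0.42 to 1.21). The 3 copies together held 14.9% and 18.7% of Trav UMIs (0.33, 0.14 to 0.52), a smaller difference than for Trav16 alone.

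Trav6-7-dv9, 1 of the segments shared by alpha and delta chains, had 97 UMIs in CD25WT and 167 in CD25KO (4.16% and 7.29%, 0.81, 0.46 to 1.16). Trav14d-3-dv8, also shared by both chains, had 37 and 87 UMIs (1.26, 0.71 to 1.81), and Trav13n-1 34 and 70 (1.06, 0.48 to 1.65). For these 3 the intervals over cells also lay above 0, around 0.50, 0.88 and 1.13. Trdc, the constant gene of delta chains, went the other way (log2 ratio -1.08), and its part in the counts of segments shared by both chains was not tested. Trav7-5 was lower, with 121 UMIs in 48 CD25WT cells and 61 in 38 CD25KO cells (-0.97, -1.40 to -0.53). Trav7-5 also had the most UMIs per cell that carried it (2.12), followed by Trav4-4-dv10 (2.07) and Trav6d-4 (2.06), and over cells its ratio was -0.53 with an interval that included 0 (-1.14 to 0.09). Among the 963 and 689 cells with a Foxp3 UMI the Trav7-5 ratio was positive, 0.95.

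Trav3-3 (115 and 89 UMIs, -0.35), Trav4-4-dv10 (97 and 83, -0.20), Trav13-1 (72 and 57, -0.31), Trav12-2 (66 and 48, -0.44) and Trav14-2 (51 and 61, 0.28) had intervals that included 0. Of less used segments, named after their values were seen, Trav17 had 13 and 48 UMIs (1.91, 1.03 to 2.79) and Trav8-1 had 35 and 9 (-1.94, -2.99 to -0.88). Trav10 had 60 UMIs in CD25WT and 29 in CD25KO while Trav10n had 11 and 33, and together the pair held 3.05% and 2.71%. Trav8d-2, of the same family as Trav8-1, had 8 and 28 UMIs. Trav22, listed as a pseudogene, had 21 UMIs in 21 cells and 4 in 4.

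Along the locus on chromosome 14 the members at its 5′ end were mostly lower in CD25KO. This grouping was chosen after the values were seen. The 7 members that precede the first d copy, out of 8 listed, held 190 of 2329 Trav UMIs in CD25WT (8.16%, 7.08 to 9.34) and 83 of 2292 in CD25KO (3.62%, 2.89 to 4.47), a log2 ratio of -1.17 (-1.53 to -0.81). They were found in 124 and 62 cells. Trav5-1 had 61 and 15 UMIs (interval -2.81 to -1.19), Trav6-1 26 and 1 (-7.56 to -1.80), Trav1 21 and 6, and Trav3-1 21 and 5. Trav7-1 (19 and 10 UMIs) and Trav6-2 (21 and 18) had intervals that included 0. Trav2 stood higher at 21 and 28 UMIs, also with an interval that included 0 (-0.37 to 1.25). Leaving out each of the 7 in turn gave -0.93 (without Trav5-1) to -1.59 (without Trav2). In central-state cells, defined below by their markers, the ratio was -1.06 (-1.66 to -0.46). In cells with a Foxp3 UMI the shares were 4.97% and 4.96%, with an interval of -1.04 to 1.04 on the log2 scale.

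The 11 d copies held 9.49% and 11.7% of Trav UMIs, the 10 n copies 19.8% and 21.5%, and the 30 members of the 3′ part 62.5% and 63.2%. Among them the direction changed from stretch to stretch. Trav6d-4, Trav7d-4, Trav8d-1 and Trav9d-1, which follow each other, all had negative ratios (-1.83 to -0.82). The UMI intervals of Trav7d-4 (-2.13 to 0.04) and Trav9d-1 (-1.94 to 0.29) included 0. Over cells the interval of Trav7d-4 did not (-3.23 to -0.32). From Trav6d-5 through Trav13n-3 all 11 members had positive ratios (0.16 to 1.83), although over cells Trav13n-3 was negative (-1.04, -2.61 to 0.54). The UMI intervals of Trav6d-5, Trav13d-4, Trav7n-4, Trav9n-4 and Trav13n-3 included 0. Over cells those of Trav16d-dv11 and Trav6n-6 (-0.31 to 1.52) did so as well. These runs were noticed in the values. Strain background, which sets how many copies a mouse carries, was not given, and its part in these values was not tested.

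**Figure D3:**
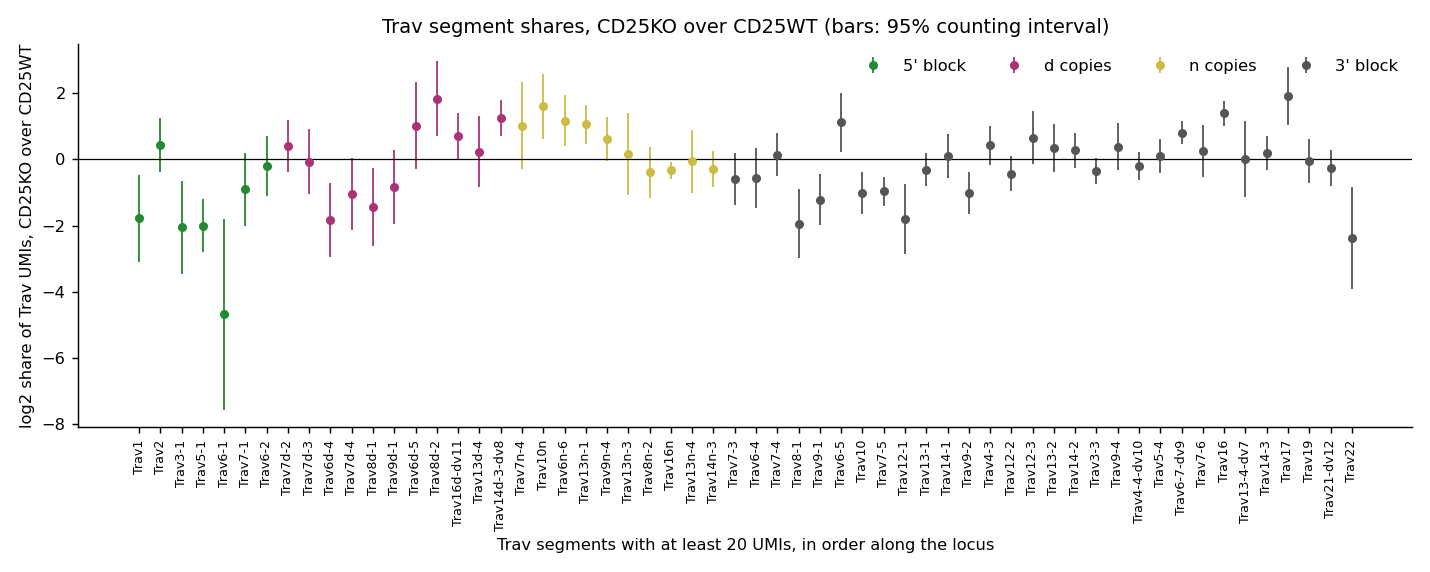
Log2 ratio of the share of Trav UMIs, CD25KO over CD25WT (y axis), for the 58 Trav members in their order along the locus (x axis), coloured by part of the locus, with 95% counting intervals. In the 5′ part Trav1, Trav3-1, Trav5-1 and Trav6-1 lie below 0 with their whole interval, and Trav16 and Trav17 in the 3′ part lie above it.

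Cells were then assigned to states by fixed lists of 10 markers each, a state needing 3 detected markers and a lead of 1 over the next list. Central-state cells (Ccr7, Tcf7 and Lef1 among the markers) numbered 4362 in CD25WT and 2166 in CD25KO. Effector-state cells (Klrg1, Gzmb, Ccl5) numbered 109 and 657, follicular regulatory-state cells 558 and 1703, and stimulated-state cells (Egr and Nr4a genes) 130 and 261. No state was given to 770 and 1843 cells. The states are ranges of a marker count: 14.2% of the CD25WT and 33.0% of the CD25KO cells with a state led by only 1 marker. The follicular regulatory list is meant for the Treg type found near germinal centres, but its most detected members were found well beyond those cells. In cells given that state, Maf had a UMI in 89.8% and 91.5%, Tbc1d4 in 90.5% and 88.1% and Sh2d1a in 84.9% and 88.8%, and in all kept cells Maf had one in 31.6% and 68.5%, Tbc1d4 in 39.4% and 49.7% and Sh2d1a in 47.5% and 65.7%. Of the defining genes, Cxcr5, which encodes the homing receptor for follicles, had a UMI in 25.4% and 17.3% of cells given the state. Bcl6, which encodes the transcription factor of follicular T cells, had one in 27.8% and 22.1%, and the inhibitory receptor gene Pdcd1 in 54.7% and 55.3%. The name stands for the marker list only.

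In the 4 states with at least 100 cells in each library, Trav capture lay between 18.3% and 25.6% of cells. Cycling-state cells, only 56 and 168 in number and far deeper (medians of 13048.5 and 15019 UMIs), stood at 33.9% and 37.5%. Trav segments were found in 21.0% of CD25WT and 19.3% of CD25KO central-state cells, and in 25.6% (22.1 to 29.5) and 21.3% (19.4 to 23.3) of follicular regulatory-state cells. For effector-state cells it was 23.9% (16.2 to 33.0) and 18.3% (15.4 to 21.4), and for stimulated-state cells 25.4% and 23.0%. Trbv segments were found in 22.4% and 22.6% of central-state, 26.9% and 24.5% of follicular regulatory-state, 16.5% and 20.7% of effector-state, and 25.4% and 17.6% of stimulated-state cells. Trac was also higher in follicular regulatory-state cells, at 1115 and 1033 CPM against 587 and 726 CPM in central-state cells. It was above central too in effector-state (763 and 893 CPM) and stimulated-state cells (1051 and 1088 CPM). In CD25KO, Trbv capture in both of these states lay below the central value. Median depth was lower in follicular regulatory-state cells (4500.5 and 4202 UMIs) than in central-state cells (5495 and 4487). The part of either in the shares was not tested.

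**Figure D4:**
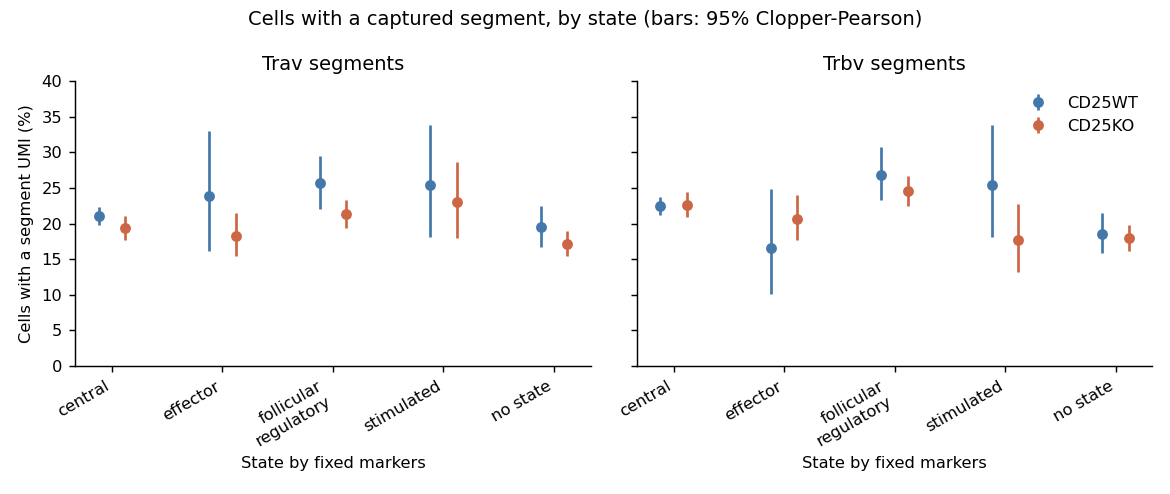
Percent of cells with a Trav UMI (left) or a Trbv UMI (right) by state (x axis), with CD25WT in blue, CD25KO in orange and 95% Clopper-Pearson bars. Follicular regulatory-state cells of CD25WT reach 25.6% and 26.9%, and the bars of the 109 effector-state and 130 stimulated-state cells of CD25WT are wide.

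The effective number of alpha segments was lower in follicular regulatory-state than in central-state cells of CD25WT. It was 18.1 (14.8 to 21.3) from 290 UMIs, against 33.9 (31.5 to 36.3) from 1567 UMIs. In CD25KO it was 24.3 (21.0 to 27.6) from 641 UMIs against 27.7 (24.8 to 30.6) from 702, where the intervals overlap. For Trbv it was 13.3 against 10.5 in CD25WT and 11.6 against 9.93 in CD25KO, with overlapping intervals in both. The index runs low at small counts, and UMIs of 1 cell are counted separately in it.

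Between follicular regulatory-state and central-state cells, the share of chain UMIs differed 1.5-fold or more for 9 higher and 16 lower of 33 Trav segments in CD25WT (20 or more UMIs over both states). In CD25KO it did for 6 higher and 6 lower of 24. For Trbv it was 3 higher and 4 lower of 16, and 3 higher and 1 lower of 14. Over all genes, on the CPM scale, 40.1% in CD25WT (32.2% higher, 7.97% lower) and 24.9% in CD25KO (19% and 5.86%) were that far apart. These genes had 20 or more UMIs and were not limited to the abundance of the segments. Between the libraries such a limit gave 39.6% in place of 25.2%, and it was not applied between states. This contrast was added after the data were seen.

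Among 33 segments measured in both libraries, Trav14-2 and Trbv2 had intervals below 0 in both. For all genes, the share with intervals on the same side in both libraries was not computed. A segment at 0 UMIs in a state has no interval and could not be counted here. Trav14d-3-dv8 was such a segment, with 0 of 290 Trav UMIs in follicular regulatory-state and 34 of 1567 in central-state CD25WT cells. In CD25KO its ratio was -1.09 (-1.87 to -0.31), and over cells -0.55 (-1.45 to 0.35). Trav14-2 gave 1 of 290 Trav UMIs in follicular regulatory-state and 47 of 1567 in central-state CD25WT cells (log2 ratio -3.12, -5.97 to -0.27), and 2 of 641 and 30 of 702 in CD25KO (-3.78, -5.83 to -1.72). In cells this was 1 and 34, and 2 and 17, and the interval over cells included 0 in CD25WT (-2.12, -4.99 to 0.75) but not in CD25KO (-2.74, -4.85 to -0.63). Trbv2 stood below its central-state share in both, at 14.2% against 22.9% in CD25WT (-0.69, -1.21 to -0.16) and 18.0% against 24.5% in CD25KO (-0.44, -0.77 to -0.11), but its intervals over cells included 0.

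Other segments stood apart in 1 library. In CD25WT, Trbv17 held 15 of 190 Trbv UMIs in follicular regulatory-state cells (7.89%) and 20 of 1272 in central-state cells (1.57%), a log2 ratio of 2.33 (1.39 to 3.27) that rested on 10 and 16 cells. In CD25KO, Trav4-3 held 28 UMIs in 19 follicular regulatory-state cells and 6 UMIs in 5 central-state cells (2.35, 1.09 to 3.62). Trav13n-1 held 28 UMIs in 16 cells and 9 in 7 (1.77, 0.70 to 2.84), whereas in CD25WT it had 0 of 290 Trav UMIs in follicular regulatory-state cells and 24 of 1567 in central-state cells. In CD25KO, Trav16 held 78 UMIs in 34 cells and 47 in 26 (0.86, 0.36 to 1.36). Trbv19 (51 UMIs against 29, 0.99, 0.35 to 1.63) was higher and Trbv13-1 (13 against 43, -1.55, -2.43 to -0.67) lower.

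**Figure D5:**
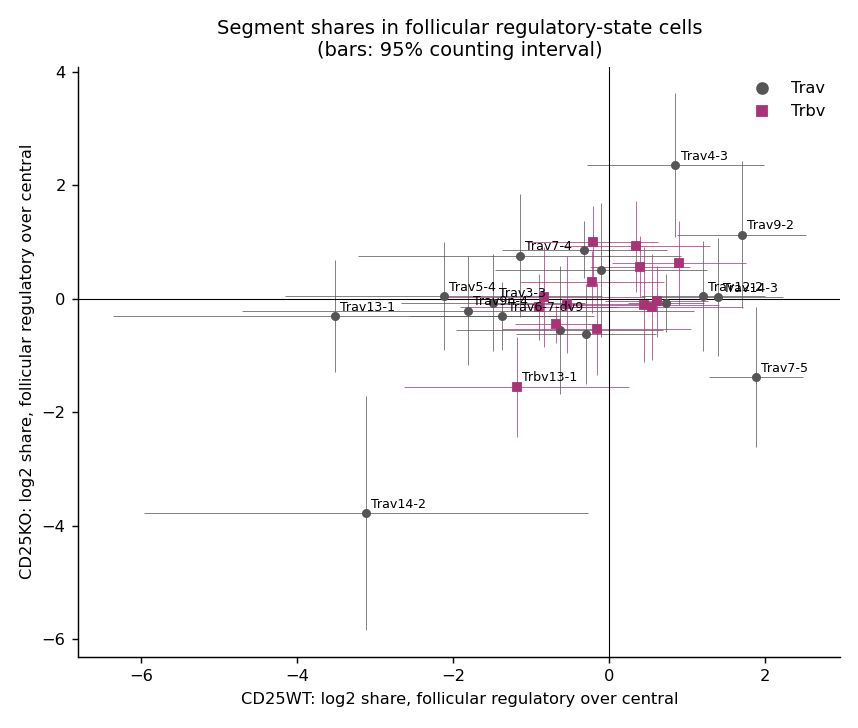
Log2 ratio of segment share, follicular regulatory over central state, in CD25WT (x axis) and CD25KO (y axis), for the 31 segments with 20 or more UMIs over both states and a UMI in each state in both libraries (Trav circles, Trbv squares), with 95% counting intervals. Trav14-2 lies low in both libraries, and Trav7-5 lies at 1.88 in CD25WT and -1.38 in CD25KO.

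Effector-state cells of CD25WT gave 37 Trav and 21 Trbv UMIs, too few for most segments. Of 27 Trav segments 9 were 1.5-fold or more higher than in central-state cells and 14 lower, all 14 at 0 UMIs, and of 16 Trbv segments 5 and 10, where 45.4% of all genes were that far apart (24.8% higher, 20.7% lower). In CD25KO, with 195 and 181 UMIs, it was 4 and 4 of 16 Trav and 2 and 4 of 14 Trbv segments, against 24% of all genes (14% higher, 10% lower). Here too the genes were compared on the CPM scale and were not limited to the abundance of the segments. Trav3-3 was higher in both libraries (1.48, 0.39 to 2.58, and 0.78, -0.23 to 1.79). Trbv13-2 had 0.46 in CD25WT and 0.75 in CD25KO (0.03 to 1.47), where the interval over cells included 0 (0.45, -0.35 to 1.26). Trbv1 had 0.64 and 0.23, Trbv12-2 0.64 and 0.00, and Trbv2 -0.68 and -0.01. Trav4-4-dv10 had 0 of 37 UMIs in CD25WT and -0.10 in CD25KO, and Trbv13-1 0 of 21 and -0.87. Apart from Trav3-3 in CD25WT and Trbv13-2 in CD25KO, the intervals of those with a value included 0. The following were named after their values were seen. In CD25WT, Trav16n held 8 of 37 Trav UMIs (1.45, 0.53 to 2.37) and Trav4-3 held 3 (2.40, 0.74 to 4.07). Trbv16 held 4 of 21 Trbv UMIs there (2.37, 1.03 to 3.70) and Trbv17 held 2 (2.60, 0.60 to 4.60). Of these, only Trav4-3 had an interval over cells that included 0 (-1.74 to 4.04). In CD25KO, Trav7-5 was higher (1.53, 0.61 to 2.45), but over cells its interval included 0 (-0.88 to 1.87). Trbv19 in CD25KO stood at 1.06 (0.25 to 1.88), from 18 UMIs in effector-state and 29 in central-state cells. Of the 27 segments measured in both libraries, none had intervals on the same side of 0 in both. However, the 14 Trav and 7 Trbv segments at 0 UMIs in effector-state cells of CD25WT have no interval there and could not be counted. Among these, Trav14-2 (-2.06, -4.11 to -0.01) and Trbv26 (-2.20, -4.25 to -0.15) were lower in CD25KO, and Trav13n-1 (2.14, 0.89 to 3.39) was higher. Over cells, all 3 of these intervals included 0.

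Most carrying cells gave a single segment UMI of a chain, 62.7% and 64.5% for Trav and 78.4% and 80.6% for Trbv. A T cell displays 1 beta chain and often 1 alpha chain, although both alpha alleles can be joined. Among cells with a Trav UMI, 9.99% (8.42 to 11.8) in CD25WT and 9.41% (7.91 to 11.1) in CD25KO had 2 or more Trav segments. For Trbv it was 6.51% (5.26 to 7.96) and 5.41% (4.32 to 6.68). Cells with 2 or more Trav segments were deeper, with medians of 7458 and 6565 UMIs against 5424 and 4783 for cells with 1. Counting only segments with at least 2 UMIs in a cell left 6 of 429 and 13 of 413 Trav cells, and 4 of 240 and 0 of 231 Trbv cells. No doublet caller was run, and doublets and free RNA were not separated from cells that express both.

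The pairs of segments seen in the same cell were looked at after their counts were known. Trav16d-dv11 and Trav16n, the near-identical copies shown above, were together in 14 cells of the 50 and 238 that held them. Trbv12-2 with Trbv13-2, which lie next to each other, shared 16 cells of the 243 and 241 that held them. Segments adjacent among the members made 40 of 177 Trbv and 26 of 282 Trav co-detections. They made 10 of the 86 Trbv and 17 of the 201 Trav combinations seen. The number that the abundance of the segments alone would give was not computed. Trav6-1 with Trav16n shared 6 cells, all in CD25WT, out of 16 CD25WT cells with Trav6-1. These 6 cells lay in 4 states, with 1 cell in none, all had more Trbc2 than Trbc1 UMIs, and Trbv13-1, Trbv15 and Trbv17 were each seen in 1 of them. In CD25KO, Trav16 with Trav17 shared 4 cells and Trav4-3 with Trav12-2 4 cells, against 0 in CD25WT for either, and all 8 had more Trbc2 UMIs.

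Both chains were captured in 312 CD25WT cells (5.16%, 4.61 to 5.74) and 342 CD25KO cells (4.96%, 4.45 to 5.49). Exactly 1 segment of each chain was seen in 257 and 280 of them, in 207 different pairs in each library, and 167 and 159 pairs occurred in a single cell. Of the others, 8 CD25WT and 9 CD25KO pairs occurred in 3 cells, and those named at 3 cells are examples from these ties. The commonest pair of CD25WT was Trav5-1 with Trbv2 in 4 cells, all with more Trbc2 UMIs and 3 of them central-state. Trav12-1, Trav14d-3-dv8 and Trav14n-3 each paired with Trbv2 in 3 cells, and Trav16n with Trbv1 in 3. In CD25KO, Trav16 with Trbv2 and Trav16n with Trbv2 were seen in 7 cells each, Trav6-7-dv9 with Trbv2 in 6 and Trav16 with Trbv19 in 4, of which 2 were effector-state and 2 follicular regulatory-state. Trav13n-1 with Trbv1 was seen in 3 cells, all follicular regulatory-state and all with more Trbc2 UMIs. Trbv2 was in 49 CD25WT and 55 CD25KO cells with exactly 1 segment of each chain (19.1% and 19.6%). The product of the 2 segments' shares of such cells came to 1.72 cells for Trav5-1 with Trbv2. For the other CD25WT pairs, in the order named, it was 0.95, 0.95, 1.91 and 1.01 cells. For the CD25KO pairs it was 4.91, 3.54, 3.93, 2.05 and 0.51 cells. Whether a pair exceeded its product was not tested. With no junction sequence, cells that share a pair cannot be called a clone.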

How the data were processed

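Single-cell 3′ libraries (10x) were made from sorted splenic Tregs. The deposited files give raw UMI counts (per gene, per cell barcode). Per the file headers they come from Cell Ranger 6.0.0, and the submitters' processing notes name mm10. Which annotation was counted, and the read length, were not given in the sources used here. Members, marker lists, rules and alternatives were chosen with earlier results of these data known.

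UMIs were summed over kept cells and given as a share of the chain's UMIs, as CPM and as a share of cells. Intervals at 95% were Clopper-Pearson for shares of cells, exact conditional Poisson for summed UMIs, a Wald interval for ratios of shares and a multinomial one for the inverse Simpson index. UMIs of 1 cell are not independent, so the interval over cells is given for a named segment where it includes 0 and the UMI interval does not. Intervals cover counting error only. A cell's state was the list with the most detected markers, at least 3 and at least 1 more than any other list. No doublet caller was run. Thinning drew 2000 UMIs per cell. Segment positions and sequences came from GENCODE M21, with all 163 segments matched. The named segments were, per chain, the 8 with the highest mean share, up to 5 in each direction by library ratio and by effector over central ratio with at least 100 UMIs, the 5 commonest pairs per library, and the 3 with the most UMIs per cell. Others were named after their values were seen. Analyses used Python 3.11.15, NumPy 2.4.6, SciPy 1.17.1 and edgeR 4.0.16 (TMM factors only). The interval steps were tested on simulated data with independent UMIs, so the clustering of UMIs within cells was not covered.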

Additional observations from a re-analysis of the deposited data

Results flagged for a closer look

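Trav7-5 went in opposite directions between states in the 2 libraries. Its share in follicular regulatory-state over central-state cells had a log2 ratio of 1.88 (1.28 to 2.48) in CD25WT, from 34 UMIs in 13 cells against 50 in 24, and of -1.38 (-2.62 to -0.15) in CD25KO, from 7 UMIs in 5 cells against 20 in 14. Over cells the ratios were 2.08 (1.12 to 3.05) and -1.14 (-2.61 to 0.33). The difference between the libraries was not tested. Trav7-5 was singled out among the 33 segments measured in both libraries because both UMI intervals lay wholly on opposite sides of 0. A segment at 0 UMIs in a state has no interval and could not be singled out this way.

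Variable segments of other chains, outside the Trav and Trbv rows, also gave UMIs above the 3 counts that a count of 0 allows. The 6 Trdv genes of the delta chain had 133 UMIs in CD25WT and 97 in CD25KO, in 84 and 60 cells, and the constant gene Trdc had 182 and 87. The 7 gamma-chain variable genes had 22 and 24 UMIs. The 60 Traj genes had 30 and 30.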

How the results depend on the processing

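Differences are CD25KO minus CD25WT for percentages and effective numbers, and log2 CD25KO over CD25WT for summed UMIs and shares. As reported, the share of cells with a segment differed by -1.80 (Trav) and -0.62 (Trbv) percentage points, 30 Trav and 5 Trbv segments were 1.5-fold apart between libraries, and 23 and 8 Trav and 15 and 6 Trbv segments between effector and central state (CD25WT, CD25KO). With at least 1000 genes and at most 5% mitochondrial UMIs, the Trav cell difference was -0.364, 5 Trav segments were apart between states in CD25KO and 3 Trbv between libraries. Thinned to 2000 UMIs, the cell differences were -0.257 (Trav) and 0.262 (Trbv, a change of sign), the summed ratios were -0.13 (Trav) and -0.011 (Trbv, a change of sign), and the state counts were 7 and 3 for Trav and 4 and 2 for Trbv, with fewer segments reaching 20 UMIs. Among cells with a Foxp3 UMI, the cell differences were 0.504 (Trav, a change of sign) and -2.57 (Trbv), the summed ratios 0.17 and -0.059 (Trbv, a change of sign), 13 Trbv segments were apart, the Trbv effective number differed by -2.86, cells with 2 or more Trbv by -4.55, and Trav7-5 turned to 0.95. Counting only segments with 2 or more UMIs in a cell gave summed ratios of -0.13 and 0.013, a difference of 1.75 in cells with 2 or more Trav, 9 Trbv segments apart, state counts of 12 and 5 for Trav and 5 and 1 for Trbv, and 0.10 for Trbv13-3, a change of sign. A minimum of 50 UMIs left 13 Trav and 3 Trbv segments apart, and all segments with a UMI gave 47 and 9. Summed Trav and Trbv ratios were -0.27 and -0.11 with TMM factors, -0.26 and -0.11 with median-of-ratios factors, and -0.23 and -0.078 without ribosomal protein and mitochondrial genes in the total, so that Trbv changed sign under each. Apart from the smaller numbers of segments, cells or UMIs that these settings leave, the cause was not tested.

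For the 25 named segments, 34 of 224 alternative values moved beyond the counting interval and 2 changed sign. Of the 89 values for the 10 segments whose interval excluded 0, 87 kept their direction. No paired analysis was possible because each group has 1 library, and leaving out a replicate was not possible for the same reason. Depth limits the values for effector-state cells of CD25WT and for joined pairs, which were seen in about 5% of cells.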
